A study of Mus musculus with 12 samples.

Results

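The genes Eci1, Eci2, Ech1, Decr1 and Decr2 encode the isomerases and reductases that prepare unsaturated fatty acids for beta-oxidation. They were chosen by symbol: every probe set annotated to exactly 1 of the 5 symbols was taken, which gave 6 probe sets of 45037 and 5 genes of 17097. Eci1 (1418321_PM_at), Eci2 (1431012_PM_a_at), Ech1 (1448491_PM_at) and Decr2 (1423495_PM_at) had 1 probe set each, and Decr1 had a bright one (1419367_PM_at) and a dim one (1449443_PM_at). No measured value enters that rule, but the symbols were picked with earlier results of these data known, in which Eci1 was higher in wild-type livers on the high-fat diet and Decr2 was lower in knockout livers on the low-fat diet. Those differences are therefore no independent evidence, and neither are the values that contain them or share a group with them. For Eci1 these are the averaged diet change, the difference of diet effects and the genotype changes on each diet and averaged. For Decr2 these are the diet changes in knockout and in wild-type livers, the averaged diet and genotype changes and the difference of diet effects. Counts over the 5 genes, of calls or of groups without overlap, and their medians include Eci1 and Decr2. They are no independent evidence either, also where the share of all genes stands beside them.

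RNA of whole livers of male mice was hybridised to 12 arrays, 1 per extract. The groups were PML Knockout mice on the high-fat diet (60% of calories from fat), PML Knockout mice on the low-fat diet (10%), Wild Type mice on the high-fat diet and Wild Type mice on the low-fat diet. Each group had 8 mice and 3 extracts. Each extract is called a liver below, though the labels do not state plainly that the extracts are of separate mice. All mice had been on the diet for 20 weeks and were fasted for 8 h, so fasting is shared by all 4 groups. The series title names PPAR signalling and fatty acid oxidation as the subject; the labels give no strain, age, or design of the Pml deletion.

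Beta-oxidation shortens a fatty acid from its carboxyl end and needs a trans double bond next to the thioester at each round. The double bonds of oleic, linoleic and other unsaturated fatty acids lie elsewhere or are of the cis form, and would stop the cycle. Eci1 in mitochondria and Eci2, found largely in peroxisomes, shift such a bond by 1 position (enoyl-CoA isomerases). Ech1 moves a pair of bonds (dienoyl-CoA isomerase), and Decr1 in mitochondria and Decr2 in peroxisomes remove 1 of 2 neighbouring bonds with NADPH (dienoyl-CoA reductases). In liver, several enzymes of fatty acid oxidation are under the nuclear receptor PPAR-alpha, which is active in fasting.

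The promoters of Eci1, Ech1 and Decr2 are shown because, read by each gene's brightest probe set, these genes rose most on the high-fat diet averaged over genotypes. The dim probe set of Decr1 had a change of 0.60 there, against 0.57 for Decr2, and the table used here gave no Decr1 promoter. Each runs from 250 bases before to 50 bases after a transcription start, 5′ to 3′ on the gene's strand, from RefSeq's GRCm38.p6 table, in which 4 of the 5 genes matched. Eci1 lies at chr17:24426433-24426732 on the plus strand, Ech1 at chr7:28825088-28825387 on the plus strand and Decr2 at chr17:26090115-26090414 on the minus strand. Capitals mark GGGCGG, the GC box bound by SP1, and AAGATGGCG, the motif of the zinc finger factor YY1, on either strand.
Eci1: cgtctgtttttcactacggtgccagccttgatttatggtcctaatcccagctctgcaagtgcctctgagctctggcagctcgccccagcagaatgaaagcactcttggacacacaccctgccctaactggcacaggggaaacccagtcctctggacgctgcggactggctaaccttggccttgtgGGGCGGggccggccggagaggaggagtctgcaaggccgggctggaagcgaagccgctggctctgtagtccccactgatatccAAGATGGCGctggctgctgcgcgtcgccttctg
Ech1: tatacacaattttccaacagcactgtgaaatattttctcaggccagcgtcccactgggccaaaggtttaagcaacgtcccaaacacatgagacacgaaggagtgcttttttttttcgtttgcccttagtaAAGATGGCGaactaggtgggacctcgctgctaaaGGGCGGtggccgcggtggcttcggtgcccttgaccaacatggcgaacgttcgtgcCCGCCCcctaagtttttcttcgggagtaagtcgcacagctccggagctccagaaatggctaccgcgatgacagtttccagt
Decr2: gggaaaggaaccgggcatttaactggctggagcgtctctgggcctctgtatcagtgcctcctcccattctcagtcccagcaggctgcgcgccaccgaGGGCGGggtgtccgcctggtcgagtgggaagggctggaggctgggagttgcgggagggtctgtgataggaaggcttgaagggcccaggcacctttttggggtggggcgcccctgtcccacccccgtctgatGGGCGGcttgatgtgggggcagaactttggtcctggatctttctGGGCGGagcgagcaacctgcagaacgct

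The 6 motifs searched on both strands were AGGTCA (a nuclear receptor half-site), its direct repeat with 1 base between (DR1, which overlaps the half-site), GGGCGG (GC box), AAGATGGCG (YY1), TATAAA (a core promoter element) and CCAAT. AAGATGGCG was added after the sequences had been seen. It began at 17 bases from the start in Eci1 and at -120 in Ech1, in neither Decr2 nor Eci2, and in 1.4% of all 32851 promoters of that length. GGGCGG occurred in all 4 promoters and in 35.7% of all promoters, with 1 match in Eci1, 2 in Ech1, 3 in Decr2 and 3 in Eci2. CCAAT matched once, in Eci2, against 37.4% of all promoters. The half-site of PPAR-alpha, AGGTCA (16.3% of all promoters), the DR1 repeat (0.0396%) and TATAAA (13.6%) had no match in these 4 windows. These are matches of letters, not sites, and a window without a match says nothing about the factor. Only 1 window was used per gene. That of Eci2, chr13:34994095-34994394 on the minus strand, lies inside the gene, whose span runs up to 35027115. The Decr2 gene runs up to 26090322, a base within its own window. For these 2 genes the start used is therefore not the outermost one, and other starts were not searched.

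The arrays were alike, with Pearson's r across probe sets from 0.987 to 0.995. Pml, the targeted gene, had a log2 signal of 3.04 to 3.82 in the 6 knockout livers and 4.92 to 5.40 in the 6 wild-type livers, as the labels have it; whether its probe set lies in the deleted part is not given. Hepatocyte markers were bright, with a mean of 12.5 to 12.6 in every liver over 9 of 10 listed genes, Alb and Ttr among them. The 5 enzymes were bright too: their signals, averaged over all arrays, lay between the 94.5th and the 96.9th percentile of the genes on the array, and all 5 passed the filter on dim genes. Their log2 signals spanned 0.52 (Eci2) to 1.08 (Ech1) over the 12 livers. In whole liver, fewer cells of a type and less RNA per cell cannot be told apart.

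All 5 genes rose on the high-fat diet when the genotypes were averaged. This comparison uses all 12 livers, and its changes are means of the changes in knockout and wild-type livers. Eci1 rose 1.63-fold and Ech1 1.61-fold, Decr2 rose 1.49-fold, Decr1 1.27-fold and Eci2 1.2-fold. Of 10258 genes tested, 2.57% were called higher at an adjusted p of 0.05, against 5 of the 5 enzymes. Eci1 and Decr2 are in this count, which is therefore no independent evidence. The 6 high-fat livers lay above the 6 low-fat livers without overlap for Eci1, Ech1, Decr1 and Decr2, which held for 1.8% of all genes, and the livers overlapped for Eci2. The median log2 change was 0.57 for the 5 genes and -0.0036 for all genes tested.

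**Figure D1:**
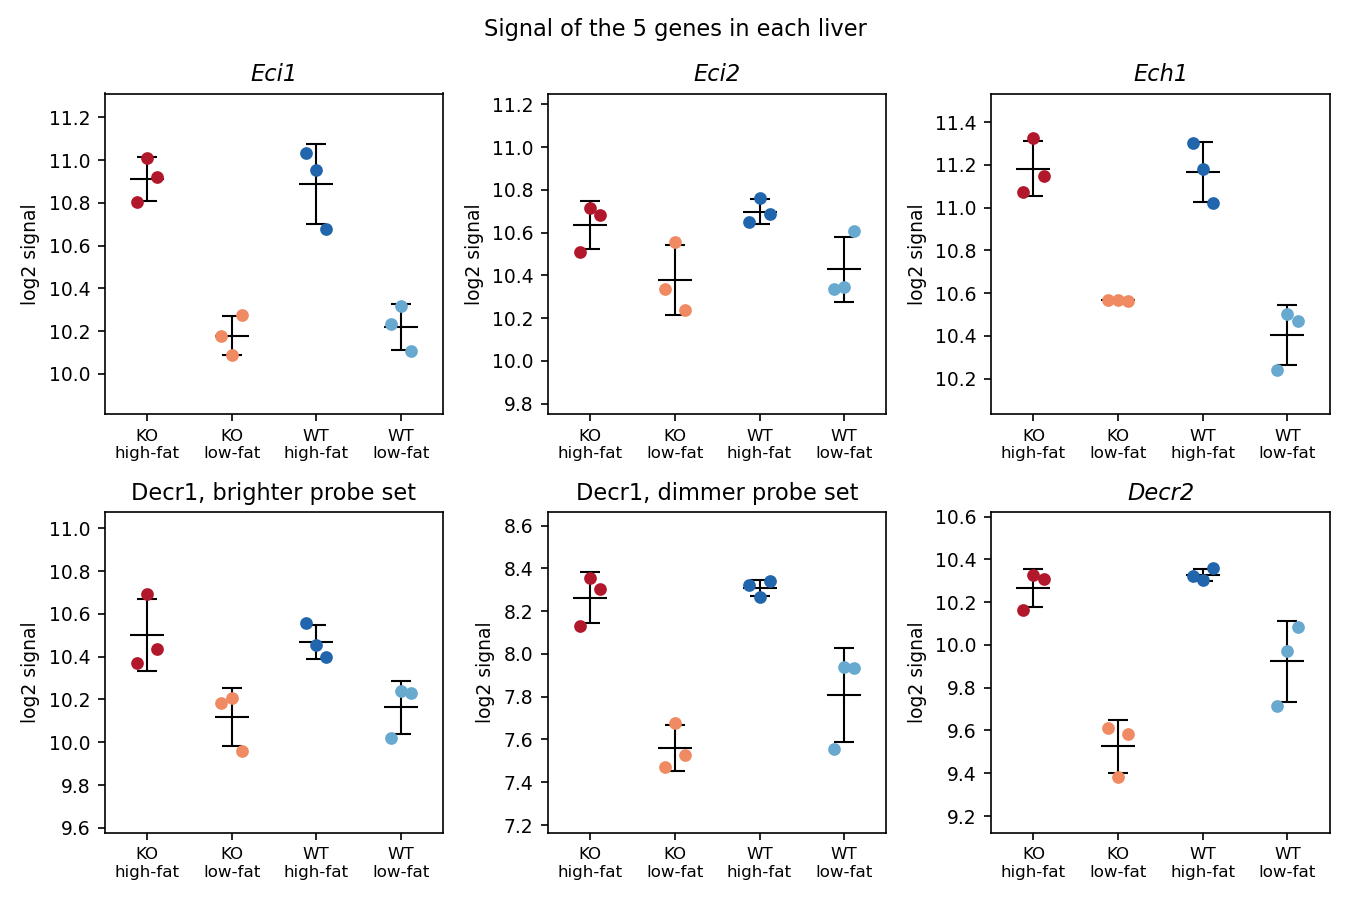
Log2 signal of each probe set of the 5 genes in the 12 livers, 1 point per liver, with the group mean and SD (n = 3) as black bars; each panel spans 1.5 log2 units but starts at its own value. For Eci1, Ech1, Decr2 and both Decr1 probe sets the high-fat livers of either genotype sit above all low-fat livers; for Eci2 they overlap.

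The enoyl-CoA isomerase of mitochondria, Eci1, separated the diets in both genotypes. Its log2 signal was 10.80, 11.01 and 10.92 in knockout high-fat livers and 10.18, 10.09 and 10.27 in knockout low-fat livers. In wild-type livers it was 11.03, 10.95 and 10.68 on the high-fat diet and 10.24, 10.32 and 10.11 on the low-fat diet. The lowest high-fat liver, a wild type at 10.68, was above the highest low-fat liver, a wild type at 10.32. In knockout livers the rise was 1.66-fold (0.73 on the log2 scale, SE 0.0957, adjusted p = 0.00274 by limma) and 1.59-fold in wild-type livers (log2 change 0.67, SE 0.0957, adjusted p = 0.0142). Averaged over genotypes the log2 change was 0.70 (SE 0.0677, adjusted p = 0.000166), the 11th smallest p of all genes. The wild-type call, not the averaged or knockout call, was lost without wild-type high-fat replicate 1 (log2 change 0.60, adjusted p = 0.0561) or 2 (0.64, adjusted p = 0.0915) and without replicate 1 of the wild-type low-fat group (0.68, adjusted p = 0.0638), and in a fit of the wild-type groups alone (adjusted p = 0.0577).

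Eci2, the isomerase found largely in peroxisomes, moved least. It had 10.51, 10.71 and 10.68 in knockout high-fat livers against 10.34, 10.56 and 10.24 in knockout low-fat livers. In wild-type livers it had 10.65, 10.76 and 10.69 on the high-fat diet against 10.34, 10.35 and 10.61 on the low-fat diet. Knockout livers overlapped between diets but wild-type livers did not, with 10.65 as the lowest on the high-fat diet and 10.61 as the highest on the low-fat diet. The log2 change was 0.26 (SE 0.0962, adjusted p = 0.169) in knockout and 0.27 (SE 0.0962, adjusted p = 0.412) in wild-type livers, neither past the threshold. The average of 0.26 (SE 0.068, adjusted p = 0.0475) passed narrowly. It passed in 3 of 12 fits that left out 1 liver: those without knockout high-fat replicate 1, knockout low-fat replicate 2 or wild-type low-fat replicate 3. In the other 9 the adjusted p was 0.0725 to 0.117 and the log2 change 0.23 to 0.28.

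Ech1, the dienoyl-CoA isomerase, had the smallest p of the 5 averaged over genotypes and in wild-type livers, while Decr2 and Eci1 had smaller ones in knockout livers. Its log2 signal was 11.08, 11.33 and 11.15 in knockout high-fat livers and 10.57, 10.57 and 10.56 in knockout low-fat livers. It was 11.30, 11.18 and 11.02 in wild-type high-fat livers and 10.24, 10.50 and 10.47 in wild-type low-fat livers. No liver of one diet reached those of the other: the lowest high-fat liver had 11.02 and the highest low-fat liver 10.57. The rise was 1.53-fold in knockout livers (log2 change 0.62, SE 0.0899, adjusted p = 0.00436) and 1.7-fold in wild-type livers (log2 change 0.76, SE 0.0899, adjusted p = 0.00402). Averaged, the log2 change was 0.69 (SE 0.0636, adjusted p = 0.000152), the 7th smallest p of 10258. All 3 calls held without each of the 12 livers in turn.

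The mitochondrial reductase Decr1 was read by a pair of probe sets that differed in size of change. The bright one had 10.37, 10.69 and 10.44 in knockout high-fat livers against 10.18, 10.21 and 9.96 in knockout low-fat livers. In wild-type livers it had 10.56, 10.45 and 10.40 on the high-fat diet against 10.02, 10.24 and 10.23 on the low-fat diet. Every high-fat liver was above every low-fat liver: the lowest high-fat liver had 10.37 and the highest low-fat liver 10.24. The log2 change was 0.38 (SE 0.099, adjusted p = 0.0573) in knockout and 0.31 (SE 0.099, adjusted p = 0.343) in wild-type livers, and the average of 0.34 (SE 0.07, adjusted p = 0.0156) passed.

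The dim Decr1 probe set had 8.13, 8.36 and 8.31 in knockout high-fat livers against 7.47, 7.68 and 7.53 in knockout low-fat livers. In wild-type livers it had 8.32, 8.27 and 8.34 on the high-fat diet against 7.55, 7.94 and 7.93 on the low-fat diet. The diets did not overlap here either. With every probe set fitted as a feature of its own, its log2 change was 0.70 (SE 0.114, adjusted p = 0.00937) in knockout livers, 0.50 (SE 0.114, adjusted p = 0.142) in wild-type livers and 0.60 (SE 0.0804, adjusted p = 0.0018) on average. The bright probe set had 0.34 on average in that fit (SE 0.0701, adjusted p = 0.0202). The call in knockout livers depended on the probe set, and the difference in size between the probe sets was not tested.

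Decr2, the peroxisomal reductase, rose in knockout livers and on average. Its log2 signal was 10.17, 10.33 and 10.31 in knockout high-fat livers and 9.61, 9.38 and 9.58 in knockout low-fat livers. It was 10.32, 10.30 and 10.36 in wild-type high-fat livers and 9.71, 9.97 and 10.09 in wild-type low-fat livers. The high-fat livers of both genotypes lay together, and the low-fat livers were spread more widely below them. The rise was 1.67-fold in knockout livers (log2 change 0.74, SE 0.095, adjusted p = 0.00247). In wild-type livers the value was 1.32-fold (log2 change 0.41, SE 0.095, adjusted p = 0.123), which did not pass; it passed with array weights (0.46, adjusted p = 0.0199). The average of 0.57 (SE 0.0672, adjusted p = 0.000726) had the 21st smallest p.

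**Figure D2:**
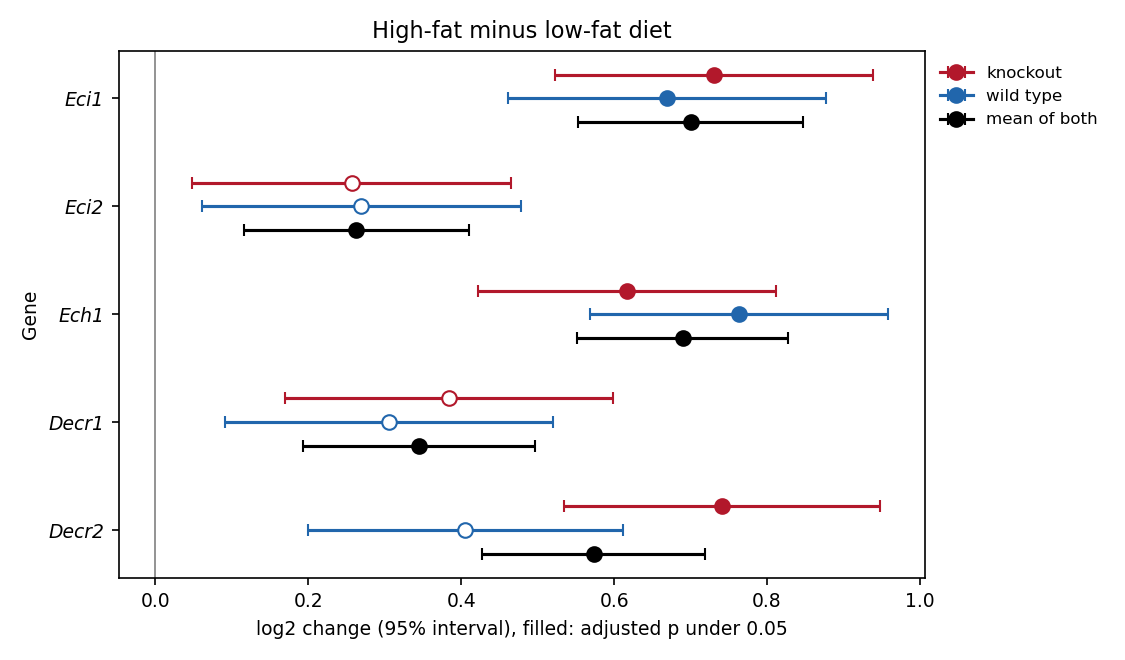
Log2 change of each gene, high-fat minus low-fat diet, in knockout livers (red), wild-type livers (blue) and their mean (black), from the gene's brightest probe set; bars are 95% intervals from limma, not adjusted for the number of genes, and filled points have an adjusted p under 0.05. All 15 intervals lie above 0. Those of Eci1, Ech1 and Decr2 averaged over genotypes (0.55 to 0.85, 0.55 to 0.83 and 0.43 to 0.72) lie above that of Eci2 (0.12 to 0.41). These differences were not tested.

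Within each genotype fewer of these changes passed. In knockout livers 3 of 5 genes were called higher on the high-fat diet (Eci1, Ech1 and Decr2), against 1.75% of all genes, and 4 of 5 had no overlap in that direction, against 10.8%. In wild-type livers 2 of 5 were called higher (Eci1 and Ech1), against 0.078%, and 5 of 5 had no overlap, against 7.83%. All 5 had an unadjusted p under 0.05 in either genotype, which 18.3% of all genes had in knockout and 8.82% in wild-type livers. The 3 knockout calls held without each liver in turn. Each diet effect of Eci1, Ech1 and Decr2 averaged over genotypes also held without knockout low-fat replicate 2 and knockout high-fat replicate 3 together, at 0.67, 0.70 and 0.53, while Eci2 at 0.30 no longer passed (adjusted p = 0.053).

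Those 2 livers had the lowest macrophage and Kupffer cell markers of the 12. Over the 12 listed genes, 11 of them tested, the mean log2 signal was 5.51 to 6.95 in knockout high-fat and 4.92 to 6.70 in knockout low-fat livers. It was 6.37 to 6.49 in wild-type high-fat and 6.04 to 6.27 in wild-type low-fat livers. Between diets 9 of 11 tested markers were above 0 in knockout livers (median log2 change 0.47), 11 of 11 in wild-type livers (0.43) and 11 of 11 averaged (0.37), with 0 past the limma threshold in each. In knockout livers Clec4f averaged 7.41 on the high-fat and 7.01 on the low-fat diet, Cd5l 8.53 and 7.70, C1qb 6.55 and 5.89, and Adgre1 6.60 and 6.60. In wild-type livers these were 7.42 and 7.20 for Clec4f, 8.30 and 7.87 for Cd5l, 6.80 and 6.28 for C1qb, and 6.90 and 6.37 for Adgre1. Timd4 was the 1 marker that did not pass the filter on dim genes. Of the 9 hepatocyte markers 5 were above 0 between diets in knockout livers (median 0.026, 1 past the threshold), 3 in wild-type livers (-0.053, 0 past it) and 3 averaged (-0.058, 0 past it). Markers past the threshold are counted in either direction. In knockout livers Hnf4a averaged 10.93 on the high-fat and 11.32 on the low-fat diet, and Apob 8.66 and 8.49. Of 5 tested markers of hepatic stellate cells 4 were above 0 in knockout livers (median 0.31), 4 in wild-type livers (0.095) and 4 averaged (0.18), with 0 past the threshold. Of 3 adipocyte markers measured, Adipoq and Lep did not pass the filter on dim genes, and Retn passed it with group means of 4.01 to 4.28. Of 9 tested markers of sinusoidal endothelium, 1 was above 0 between diets in knockout livers (median -0.39) and 3 in wild-type livers (-0.043). Averaged over genotypes 1 of 9 was above 0 between diets (-0.26). Between genotypes averaged over diets 0 of 9 were above 0 (median -0.32). In each of these comparisons 0 passed the limma threshold. Of 3 tested markers of exocrine pancreas, all 3 were above 0 between diets averaged over genotypes (median 0.15) and 1 passed. In knockout livers 2 of 3 were above 0 (0.019) and in wild-type livers 3 of 3 (0.32), with 0 past the threshold. The log2 difference between 3′ and 5′ actin probe sets, a sign of RNA quality, was 1.41 to 1.44 in knockout high-fat, 1.48 to 1.55 in knockout low-fat, 1.51 to 1.64 in wild-type high-fat and 1.26 to 1.85 in wild-type low-fat livers. The part of these in the results for the 5 enzymes was not tested.

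Between genotypes none of the 5 genes passed on either diet. The comparison asks whether livers without Pml differ in these enzymes. On the high-fat diet the knockout minus wild-type log2 changes were 0.022 for Eci1, -0.064 for Eci2, 0.016 for Ech1, 0.033 for Decr1 and -0.061 for Decr2. All 5 genes overlapped between the genotypes there, while 11.8% of all genes did not. Of the 5, 0 had an unadjusted p under 0.05, against 4.46% of all genes, and 0 passed limma's adjusted threshold, against 0.00975% of all genes, which is Pml alone. Their 95% intervals ran from -0.27 to 0.25, that is from 0.828 to 1.19 times the wild-type level; these intervals are not adjusted for the number of genes. For genes this close to 0 the sign is not stable: Eci1, Eci2, Ech1 and Decr1 changed sign without 1 liver or another.

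On the low-fat diet Decr2 was the 1 gene of the 5 with an unadjusted p under 0.05 (8.72% of all genes had one), and limma called 0 of 5, against 0.00975% of all genes. Decr2 had 9.61, 9.38 and 9.58 in knockout livers and 9.71, 9.97 and 10.09 in wild-type livers. The genotypes did not overlap, with knockout replicate 1 at 9.61 as the highest of its group and wild-type replicate 1 at 9.71 as the lowest of its own. The log2 change was -0.40 (SE 0.095, 95% interval -0.60 to -0.19, limma adjusted p = 0.298), the 39th smallest p of all genes. It stayed between -0.50 and -0.32 without each liver in turn, with an adjusted p of 0.156 to 0.55. Ech1 lay on the other side, also without overlap: 10.57, 10.57 and 10.56 in knockout livers and 10.24, 10.50 and 10.47 in wild-type livers, a log2 change of 0.16 (SE 0.0899, adjusted p = 0.645). On this diet 4.92% of all genes were lower without overlap, as Decr2 was, and 7.09% higher without overlap, as Ech1 was. The dim Decr1 probe set had -0.25 (SE 0.114, limma adjusted p = 0.61 in the fit of all probe sets), against -0.046 for the bright one. Eci1 and Eci2 had -0.039 and -0.052, and with Decr1 these genes had intervals from -0.26 to 0.17.

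**Figure D3:**
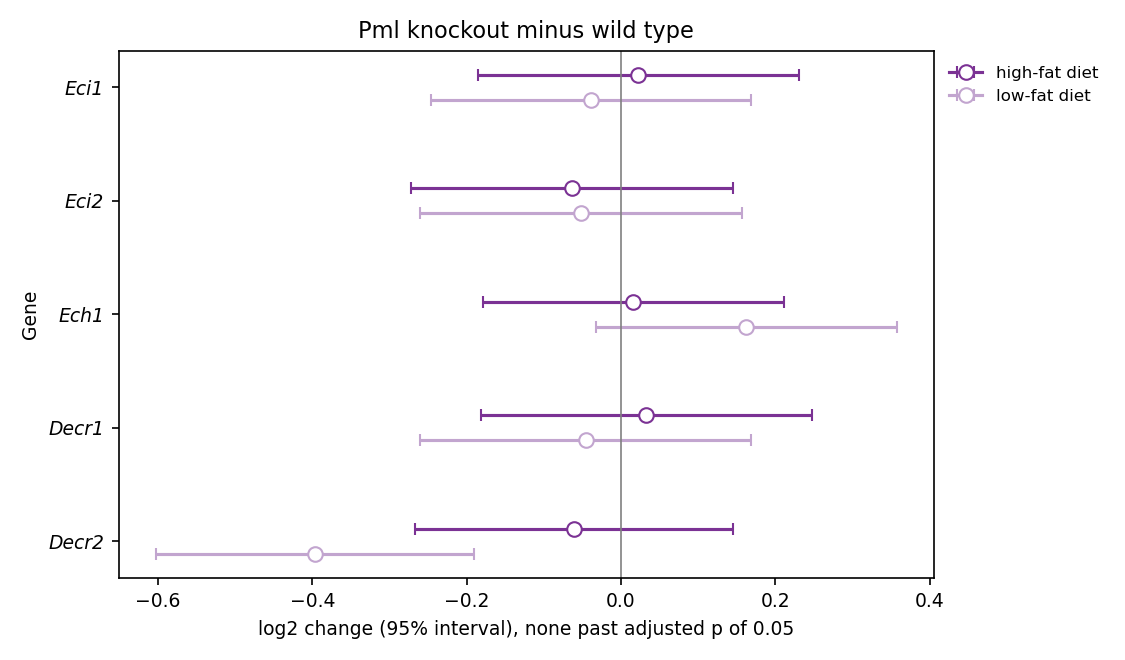
Log2 change of each gene, Pml knockout minus wild type, on the high-fat diet (dark) and the low-fat diet (light), with 95% intervals from limma that are not adjusted for the number of genes. Open points did not pass; 9 of the 10 intervals include 0, and that of Decr2 on the low-fat diet (-0.60 to -0.19) does not.

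Averaged over diets, 0 of 5 genes passed, against 0.0195% of all genes, and 1, Decr2, had an unadjusted p under 0.05, against 7.26%. Its log2 change was -0.23 (SE 0.0672, adjusted p = 0.596), with the 6 knockout livers from 9.38 to 10.33 (median 9.89) and the 6 wild-type livers from 9.71 to 10.36 (median 10.19). The other 4 genes lay between -0.058 (Eci2) and 0.089 (Ech1).

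The diet effect was not shown to differ between genotypes for any of the 5. The knockout minus wild-type difference of diet effects was largest for Decr2, at 0.34 (SE 0.134, 95% interval 0.044 to 0.63, unadjusted p = 0.0273, limma adjusted p = 0.827). It was -0.15 for Ech1, 0.079 for Decr1, 0.062 for Eci1 and -0.012 for Eci2, with intervals that include 0. Limma called 0 of 5 and 0% of all genes here, with 5.7% of all genes at an unadjusted p under 0.05. Intervals over the 5 genes ran from -0.42 to 0.63, and for Decr2 the upper bound of 0.63 is above its averaged diet effect of 0.57. Ppara, the gene of PPAR-alpha, had a difference of 0.36 (SE 0.138, adjusted p = 0.827), with a diet change of 0.30 in knockout and -0.066 in wild-type livers.

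High-fat groups held the top 2 places for every gene, and the genotypes overlapped within the high-fat diet for all 5. Eci1, Decr1 and Decr2 had wild-type low-fat livers in the third place and knockout low-fat livers last, and so had Eci2, while Ech1 had this pair turned round. The low-fat genotypes overlapped for Eci1, Eci2 and Decr1 and did not for Ech1 and Decr2.

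Among knockout high-fat livers replicate 1 was the lowest and replicate 2 the highest for 5 of 5 genes, an order that 14.1% of all tested genes had, and for the dim Decr1 probe set. Wild-type low-fat replicate 1 was the lowest of its group for 4 of 5 genes, all but Eci1, against 29.1% of all tested genes. In knockout low-fat livers replicate 2 was the highest for 4 probe sets and the lowest for the other 2, those of Eci1 and Decr2. In knockout high-fat replicates 1, 2 and 3 the marker mean was 6.95, 6.54 and 5.51 for macrophages, 6.73, 5.94 and 5.96 for sinusoidal endothelium, 6.44, 6.05 and 5.96 for stellate cells and 12.62, 12.53 and 12.52 for hepatocytes. The part of these cells in the order of the enzymes was not tested.

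Likeness between genes was measured as the mean absolute difference of their log2 signals over the 12 livers, each gene centred on its own mean. Eci1 and Ech1 were each other's nearest of all tested genes, 0.0833 apart, against a median of 0.36 for Eci1 over all genes. Next to Eci1 came Them7 (0.11) and Tmem134 (0.12), and next to Ech1 came Apol7b (0.104) and Qpct, a glutaminyl cyclase (0.126). Decr1 was nearest to Hadhb, a subunit of the mitochondrial trifunctional protein (0.0644), then Chpt1 (0.07) and Grhpr, a glyoxylate reductase (0.073). Eci2 was nearest to Oplah (0.0529), Tysnd1, a peroxisomal protease (0.0628), and Bmerb1 (0.0733). Decr2 was nearest to Cmbl (0.0844), 9630013D21Rik (0.095) and Gda, guanine deaminase (0.0981). This measure favours genes with a change of the same size and gives no test.

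Other genes of fatty acid breakdown also rose on the high-fat diet averaged over genotypes. The gene lists from here on were chosen with earlier results of these data known. Their counts and medians are therefore no independent evidence, also where the share of all genes stands beside them. In the core of mitochondrial beta-oxidation 8 of 13 tested genes were called higher, against 2.57% of all genes, and 0 lower. The median log2 change was 0.23. Acadm, the medium-chain dehydrogenase, rose 1.24-fold (log2 change 0.31, adjusted p = 0.00107) and Hadhb 1.26-fold (0.33, adjusted p = 0.00454). Etfdh, which passes the electrons on to ubiquinone, had the largest value of the list, 0.41 (adjusted p = 0.00404). Hadh, Acadl, Acadvl, Slc25a20 and Cpt2 were the others, at 0.20 to 0.38. In knockout livers alone 6 of the 13 were called higher, against 1.75% of all genes (median 0.28). In wild-type livers alone 0 of 13 were called, against 0.078% called higher of all genes (median 0.25). For the difference of diet effects 0 of 13 passed.

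In the peroxisomal list 5 of 14 tested genes were called higher, against 2.57% of all genes, and 0 lower, with a median of 0.22. The 5 were Ehhadh, the bifunctional enzyme, at 0.52 (adjusted p = 0.00787), Hsd17b4 at 0.31, the thiolase Acaa1a at 0.37, Acot8 at 0.37 and Acox2 at 0.26. Of 6 tested genes in the list of other genes of unsaturated fatty acid oxidation, Ehhadh and Hsd17b4 again passed. That list also holds Amacr and is not confined to enzymes that act on double bonds. The median of these 6 was 0.18, and all 6 were above 0. In knockout livers alone 3 of the 14 peroxisomal genes and 2 of these 6 were called higher, against 1.75% of all genes. In wild-type livers alone 0 of either list were called, against 0.078% called higher of all genes. For the difference of diet effects 0 of either list passed.

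In the list of PPAR-alpha and its targets 2 of 11 passed, both higher, against 2.57% of all genes called higher. The fatty acid hydroxylase Cyp4a10 rose 4.37-fold (log2 change 2.13, adjusted p = 0.00912) and the pantetheinase Vnn1 5.03-fold (2.33, adjusted p = 0.0175). Ppara itself had 0.12 (SE 0.0689, adjusted p = 0.383). Cyp4a10 and Vnn1 varied more between livers than the isomerases did, with an SE of 0.389 and 0.485. In knockout livers alone 2 of the 11 were called higher, against 1.75% of all genes (list median 0.57). In wild-type livers alone 0 of 11 were called, against 0.078% called higher of all genes (list median 0.16). For the difference of diet effects 0 of 11 passed.

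Most tested enzymes that make unsaturated and long fatty acids fell on the high-fat diet averaged over genotypes. Of 12 tested desaturases, elongases and synthesis enzymes 8 were called lower and 0 higher, with a median of -0.47. Over all 10258 genes 468 were called in either direction, 264 of them higher. Scd1, which puts in the first double bond, had -2.52 (adjusted p = 7.5e-07). The elongase Elovl6 had -1.87 and Elovl5, which extends polyunsaturated fatty acids, -0.52 (adjusted p = 0.00147). The desaturase Fads1 had -0.41 (adjusted p = 0.032). Acaca, Fasn, Acacb and Elovl1 were the others called lower, at -1.50, -1.86, -1.74 and -0.40. Fads2 (-0.25), Elovl2 (-0.18), Elovl3 (-0.027) and Elovl7 (0.030) did not pass; Elovl3 had -0.67 in knockout and 0.62 in wild-type livers, neither past the threshold.

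**Figure D4:**
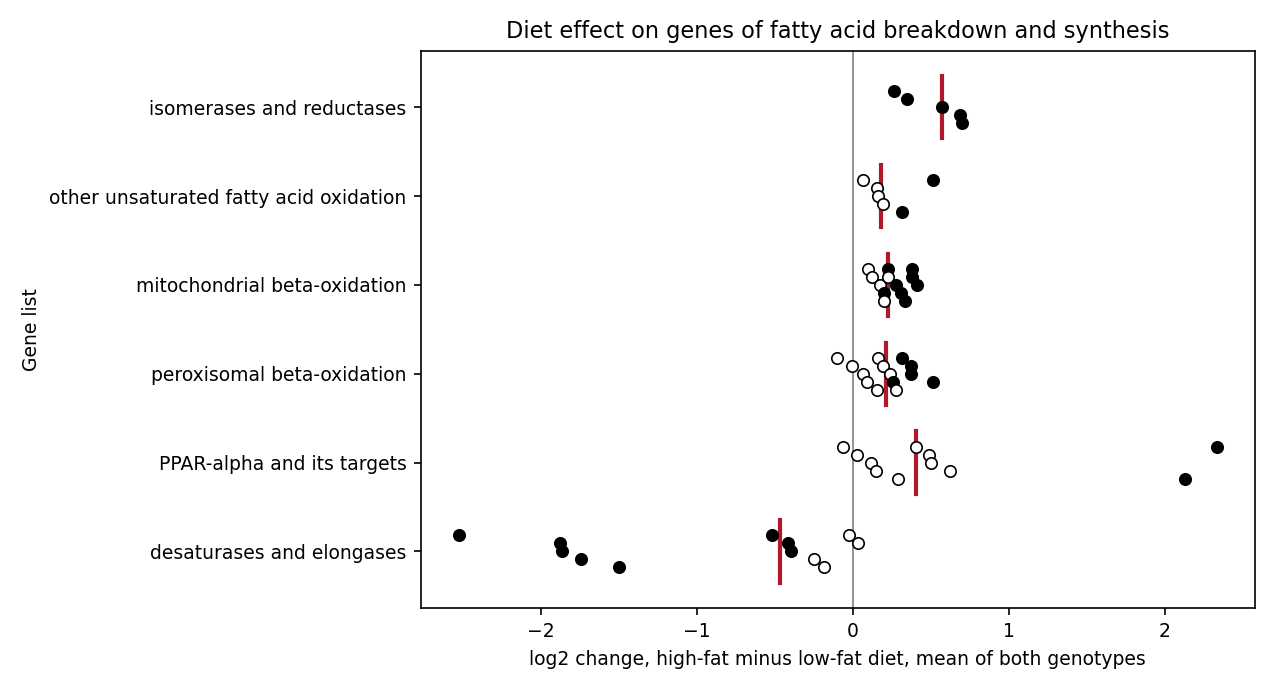
Log2 change, high-fat minus low-fat diet averaged over genotypes, of each tested gene in 6 lists, 1 point per gene, filled where the adjusted p is under 0.05; red lines are medians and the vertical spread of points has no meaning. The medians are 0.57 for the 5 isomerases and reductases, 0.18 for other genes of unsaturated fatty acids, 0.23 and 0.22 for mitochondrial and peroxisomal beta-oxidation, 0.40 for PPAR-alpha and its targets and -0.47 for desaturases and elongases; genes that belong to 2 lists appear in both.

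Between genotypes 0 genes of these 5 other lists passed limma's threshold on either diet. On the low-fat diet all 11 tested genes of the PPAR-alpha list had values below 0, with a median of -0.47 against 0.0049 for all genes, and Ppara had -0.47 (adjusted p = 0.222). The 5 isomerases and reductases had a median of -0.046 in that comparison, with 1 of 5 above 0 against 51.5% of all genes.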

How the data were processed

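Liver RNA of 12 extracts in 4 genotype-by-diet groups of 3 was measured on Affymetrix PM arrays. The deposited log2 values had been made by the authors with RMA, per the submitters' processing notes; its version and the chip definition are not given in the sources used here. Arrays give no read depth, so their number limits the precision. Of 45141 probe sets 104 controls were left out, 28898 named 1 gene, 551 several and 15588 none here. Each of 17097 genes was read by its brightest probe set over all arrays, and the dimmest 40% of genes were left out, which left 10258.

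One limma fit (version 3.58.1, R 4.3.3) over all 12 arrays, with a mean-variance trend and 8 residual degrees of freedom, gave every contrast. Adjusted p-values are Benjamini-Hochberg values from limma over the 10258 genes, with a threshold of 0.05. Where a fit with another filter or probe set rule is named, they are over the features of that fit. The labels number the extracts without stating plainly that they are of separate mice, so p-values measure the spread between these extracts. An exact permutation test of 3 against 3 livers cannot go below 0.1 and was not used. The fit was also run on simulated data for the wild-type diet contrast, with 10258 genes and normal noise drawn independently for each gene. In these, 67 genes were changed 1.5-fold, 67 2-fold and 66 4-fold. The fit recovered 58.2% of genes changed 1.5-fold, 91% at 2-fold and 97% at 4-fold, with 8 false among 172 calls. The measured contrast had 18 calls, so its cutoff on the unadjusted p was stricter. The recovered shares therefore do not carry over to it.

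The members and the gene lists were chosen with earlier results of these data known. Genes were named by rule: the 5 enzymes, Pml, Ppara, the 3 genes most like each enzyme, and genes past the threshold in each list; cell type markers and the 4 list genes that did not pass were named after their values were seen. Lists share genes: Ehhadh, Hsd17b4, Pecr and Amacr stand in 2. Alternatives were quantile normalization, median centring, other filters and probe set rules, other variance models, array weights, the replicate number as a block, subsets of arrays and a threshold of 0.1.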

Additional observations from a re-analysis of the deposited data

How the results depend on the processing

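Of the results for single enzymes under all alternatives, 798 kept their direction and side of the threshold, 20 were no longer past it, 5 came past it and 37 changed sign. The number of enzymes called in wild-type livers, 2, was 1 in a fit of those groups alone and 1 to 2 without each liver in turn, and 3 with array weights, where Decr2 also passed. The averaged Eci2 call, narrow at an adjusted p of 0.0475, was lost with quantile normalization (0.0809), median centring (0.0569), no filter (0.0641), the mean of probe sets (0.0565), every probe set (0.0599), no variance trend (0.0831) and without knockout low-fat replicate 2 and knockout high-fat replicate 3 (0.053). Decr1 in knockout livers passed with the 60% filter (0.0495) and the mean of probe sets (0.0178). With every probe set as a feature, its dim probe set passed (0.00937) and the bright one did not (0.0716).

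Signs changed for genotype values near 0 that passed nowhere. Decr1 on the high-fat diet was -0.00693 with the mean of probe sets. With every probe set as a feature, the value taken was that of the dim probe set, -0.047. The bright one kept its sign in that fit, at 0.033. With array weights Decr1 was 0.010 on the low-fat diet and 0.026 averaged. Without the 2 livers above, Eci1 was 0.0063 on the low-fat diet and 0.012 averaged, and the Eci2 difference of diet effects was 0.053. Without each liver in turn, high-fat values ran from -0.082 to 0.095 for Eci1, -0.103 to 0.00025 for Eci2, -0.058 to 0.082 for Ech1 and -0.064 to 0.097 for Decr1. Low-fat values ran from -0.096 to 0.0096 for Eci1, -0.14 to 0.036 for Eci2 and -0.12 to 0.033 for Decr1. Averaged values ran from -0.061 to 0.028 for Eci1 and -0.055 to 0.033 for Decr1. Differences of diet effects ran from -0.043 to 0.13 for Eci1, -0.0998 to 0.078 for Eci2 and -0.018 to 0.15 for Decr1 (0.155 without the 2 livers together). The cause was not tested.

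Over all genes the calls, 311 in knockout livers, 18 in wild-type livers and 468 averaged, ranged from 68 (only the groups compared) to 655 (threshold of 0.1), from 5 (without wild-type high-fat replicate 2) to 109 (array weights) and from 256 (without the 2 livers) to 921 (threshold of 0.1). Genotype calls of 1, 1 and 2 genes on the high-fat diet, on the low-fat diet and averaged ranged from 0 to 3, 0 to 4 and 0 to 5. The labels do not say that replicate numbers pair livers, and same-numbered deviations did not all correlate above 0.1. They ran from -0.043 to 0.381 between the knockout diets, -0.166 to 0.128 between the wild-type diets, 0.0723 to 0.134 between genotypes on the high-fat diet and -0.109 to -0.00832 on the low-fat diet. Livers correlated best with their own number in 2, 1, 3 and 0 of 3 cases, the 3 of 3 being a hint from the data and not from the design. With the replicate block no enzyme gained or lost a call, and all-gene calls were 310, 22 and 484 for the 3 diet comparisons.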
